A study of Caenorhabditis elegans with 14 samples.

Results

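Small RNAs were compared between the de-silenced line of strain HC83 and wild type in young adult Caenorhabditis elegans. The libraries were chosen by their labels: those of the non-array line at generation F21 (n = 2), which the series calls de-silenced, and those of strain N2, the wild type (n = 2). They are 4 of the 14 samples of the series, 12 of which have a column of counts. All values are whole-number counts of reads of 21 to 26 nt assigned to each gene, over 20541 genes.

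The series concerns heritable silencing of sid-1. Its other groups, used here only to place the genes that differ between F21 and N2, were the same non-array line of strain HC83 while silenced, at generation F6 (n = 2), strain HC125 with Psid-1::gfp (n = 4) and hrde-1;HC125, the same with hrde-1 mutated (n = 2). The animals of all groups were young adults synchronized by timed egg laying, and whole animals were the source of RNA as far as the labels say. The libraries are described as 5'-independent and were made after a polyphosphatase step, which lets RNAs with a 5' triphosphate be ligated. The sources used here give neither the genotype of HC83, nor the make-up of its array, nor the hrde-1 allele. The labels do not say whether the F21 libraries came from more than 1 line, and N2 need not share the strain background of HC83. No label says that replicates were separate cultures, so p-values measure only the spread between libraries, taken within all 5 groups together.

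In C. elegans most small RNAs with a triphosphate are secondary siRNAs. RNA-dependent RNA polymerases copy them from a target messenger RNA, and they are loaded onto worm-specific Argonautes, the WAGO proteins and CSR-1. HRDE-1, a nuclear Argonaute of the germline, carries such silencing across generations, and SID-1 is the channel that lets cells import double-stranded RNA. A count at a gene is therefore a count of small RNAs that match it, and measures neither its messenger RNA nor its protein. The strand setting of the counting is not stated there either, so sense reads may be included.

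The F21 libraries held 3758704 and 514814 reads at genes, and the N2 libraries 470115 and 847628. A floor of 3 counts corresponded to 0.803 and 5.83 CPM (counts per 1e+06 counts at tested genes, with TMM scaling) in F21, and to 6.66 and 3.37 CPM in N2, for counting error only. On principal components, N2 replicate 2 stood apart on the second at -63.7, together with HC125 replicates 1 and 2, and N2 replicate 1 stood apart on the third at 68.5. Over the 3583 genes with a mean of at least 50 CPM, the median absolute log2 difference was 0.185 between the F21 replicates and 0.302 between the N2 replicates. Between the F21 mean and the N2 mean it was 0.232. A difference between means of 2 libraries varies less than one between single libraries. These medians are therefore unlike measures, and do not show whether the groups differed more than replicates did.

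At sid-1 (WBGene00004795, V:5119970-5126916, plus strand) the difference between the 2 groups did not pass the test. The small RNAs came to 731 and 801 CPM in F21, against 836 and 786 CPM in N2. The difference on the log2 scale was -0.08 ± 0.16 (SE), with a 95% interval of -0.41 to 0.24 (adjusted p = 0.846, edgeR). The adjacent gene C04F5.9 (WBGene00015451, V:5114715-5119209) had 54.9 and 42.8 CPM in F21, against 73.2 and 58.4 CPM in N2, a log2 difference of -0.34 (interval -0.95 to 0.28, adjusted p = 0.610). C04F5.8 had 24.1 and 19.44 CPM in F21, against 24.4 and 22.4 CPM in N2. ugt-63 had at most 6 reads in a library of either group. F14F9.4 had 12.3 and 7.78 CPM in F21, against 11.09 and 4.49 CPM in N2 (adjusted p = 0.695), and F14F9.5 and F14F9.8 were not tested. At hrde-1 (WBGene00007624) the counts came to 989 and 966 CPM in F21, against 861 and 816 CPM in N2, a log2 difference of 0.22 ± 0.19 (interval -0.18 to 0.62, adjusted p = 0.602).

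Across all genes few were called, and a gene that was not called may still differ. Of 10470 genes tested, 21 were called at an adjusted p under 0.05, or 0.201%. Of these, 12 had more small RNAs in F21 than in N2 (0.115%) and 9 had fewer (0.086%). They correspond to 18 loci, 9 in each direction, because 3 of the genes called higher are annotated as 2 copies that share their reads. In all 21 the F21 libraries lay entirely above or entirely below the N2 libraries, which was also so for 22% of all tested genes in the higher direction and 20.3% in the lower. Of the genes called higher 11 exceeded a 4-fold difference, and of those called lower 2 did. A further count gives the reach of the test: 1489 genes (14.2%) had an unadjusted p under 0.05. The log2 difference of all tested genes had a median of 0.02, with 25th and 75th percentiles of -0.44 and 0.33. In bulk RNA of whole animals, fewer cells of a type and fewer small RNAs per cell cannot be told apart.

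**Figure D1:**
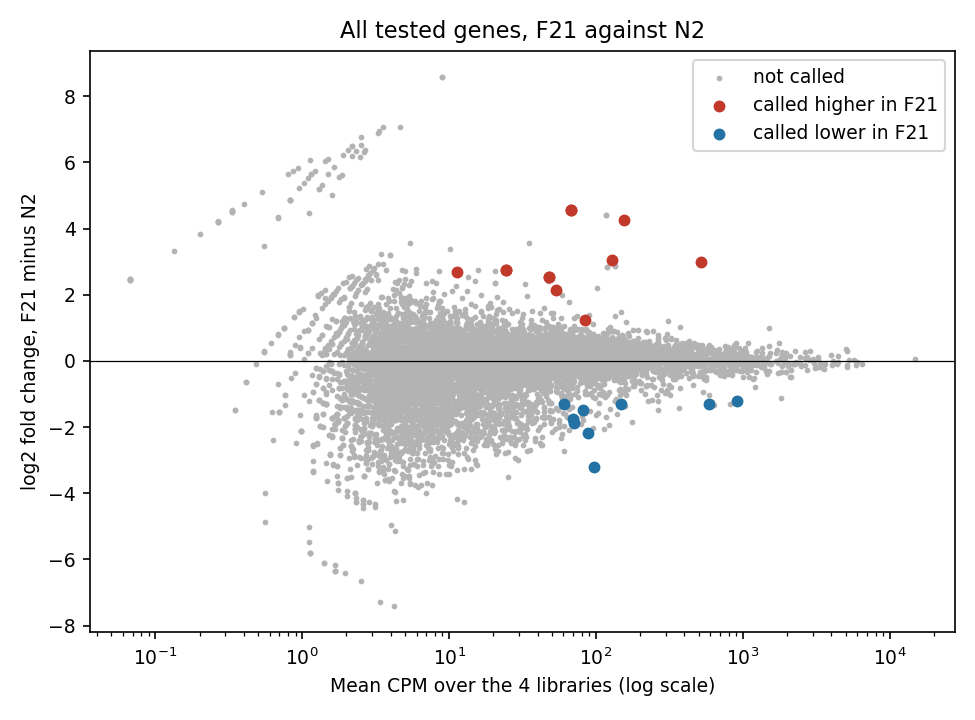
Each point is a tested gene, with its mean CPM over the F21 and N2 libraries on a log axis and its log2 fold change (F21 minus N2) on the other. The 12 genes called higher (red) lie at 1.24 to 4.57 and the 9 called lower (blue) at -3.20 to -1.20, and the genes with the largest fitted changes at low CPM were not called.

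B0261.8 (WBGene00015096, I:5271265-5272041, minus strand) had the smallest adjusted p. Its small RNAs came to 1136 and 709.6 CPM in F21, against 138 and 102 CPM in N2. That is 7.92-fold more in F21, a log2 difference of 2.99 ± 0.23 (SE, adjusted p = 3e-06, edgeR), and both F21 libraries lay well above both N2 libraries. The protein has no role that can be given here with confidence.

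nhr-64 (WBGene00003654, I:3101851-3109621, plus strand) encodes a nuclear hormone receptor, a ligand-regulated type of transcription factor that is greatly expanded in C. elegans. It had 203 and 259 CPM in F21, against 13.3 and 35.9 CPM in N2. The log2 difference was 3.06 ± 0.28 (adjusted p = 8e-06). The N2 libraries differed from each other here, and without N2 replicate 2 the log2 difference was 4.09 (adjusted p = 1.74e-05).

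spds-1 (WBGene00012909, II:12806899-12810872, plus strand) encodes spermidine synthase, the enzyme that makes the polyamine spermidine from putrescine. Its small RNAs came to 323 and 261 CPM in F21, against 22.2 and 11.2 CPM in N2, where each library had 10 reads. The log2 difference was 4.27 ± 0.52 (adjusted p = 0.00949), or 19.3-fold. The call ended without F21 replicate 1 (4.09, adjusted p = 0.0689) and without N2 replicate 2 (3.74, adjusted p = 0.268).

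rft-1 (WBGene00044637, V:4438932-4443223, minus strand) encodes a riboflavin transporter. It had 80.01 and 97.2 CPM in F21, against 17.8 and 20.2 CPM in N2, a log2 difference of 2.16 ± 0.29 (adjusted p = 0.00155). The other riboflavin transporter gene, rft-2, lies 80 bases away on the same strand and had 19 and 19.44 CPM in F21, against 17.7 and 15.7 CPM in N2 (log2 difference 0.21, adjusted p = 0.856). The increase was thus counted at rft-1 and was not detected at its neighbour.

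jmjd-3.3 (WBGene00007813, X:13436422-13441438, plus strand) belongs to the family of JmjC histone demethylases that act on lysine 27 of histone H3. It had 108 and 126 CPM in F21, against 66.6 and 37.04 CPM in N2, a log2 difference of 1.24 ± 0.23 (adjusted p = 0.0332). Leaving out either F21 library or N2 replicate 2 ended the call (1.36, 1.17 and 0.80, adjusted p = 0.165, 0.131 and 0.388), as did fitting F21 and N2 alone (1.16, adjusted p = 0.112). F55A11.6 (WBGene00010079, V:11776838-11783429) had 18.5 and 21.4 CPM in F21, against 2.22 and 3.37 CPM in N2, from 1 and 3 reads. Its log2 difference of 2.67 ± 0.52 (adjusted p = 0.0398) lost its call under the omission of any of the 4 libraries, at 2.47 to 3.1, by DESeq2 (2.65, adjusted p = 0.0819) and with only F21 and N2 in the fit (2.6, adjusted p = 0.114).

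The remaining genes called higher lie in one place. On chromosome V, between positions 2348215 and 2560739, a segment is annotated as 2 copies, side by side, and the counts of each gene and its copy are the same or nearly so, so reads cannot be assigned to one copy. srd-71 (WBGene00005148 and WBGene00021572) encodes a serpentine receptor of the srd class, a family of candidate chemoreceptors. It had 114 and 144 CPM in F21, against 6.66 and 4.49 CPM in N2, from 3 and 4 reads. The log2 difference was 4.57 ± 0.38 (adjusted p = 4e-06), or 23.8-fold. C01B4.6 had 83.8 and 79.7 CPM in F21, against 11.09 and 15.7 CPM in N2 (2.55 ± 0.42, adjusted p = 0.0214). F56A4.12 had 51.6 and 33.1 CPM in F21, against 6.66 and 6.73 CPM in N2 (2.75, adjusted p = 0.0332 and 0.0368 at its 2 copies). The calls of C01B4.6 ended under the omission of any 1 of the 4 libraries, at 2.36 to 2.90. Those of F56A4.12 ended under every omission except that of F21 replicate 2, at 2.29 to 2.79.

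The other genes of the segment mostly lay on the same side, though edgeR did not call them. Of the 42 annotated genes that occur there as pairs of the same name, 22 were tested, which makes 11 pairs. Genes of the segment whose names are not paired are left out of these counts. Among them, F56A4.11 and Y19D10A.10 each lie 1321 bases from a copy of F56A4.12. They had 12.8 and 1.94 CPM, and 12 and 1.94 CPM, in F21, against 4.44 and 3.37 CPM in N2 for both. Their F21 libraries thus lay on both sides of N2 (log2 difference 1.34 and 1.26, adjusted p = 0.482 and 0.516, edgeR). The F21 libraries lay above the N2 libraries for 20 of the 22 genes and below them for 2, beside 22% and 20.3% of all tested genes. The median log2 difference was 2.86 (2.85 with genes at 0 in N2 set at their bound), beside 0.02 over all tested genes. Of the 22, edgeR called 6 higher and 0 lower, beside 0.115% and 0.086% of all tested genes. DESeq2 called 14 higher and 2 lower, beside 28 and 66 of all 10470. At an unadjusted p under 0.05, 20 were higher and 2 lower, beside 653 and 836 of all 10470. clec-209, a C-type lectin gene, had 223 and 224 CPM in F21, against 11.09 and 10.1 CPM in N2, and a log2 difference of 4.41 ± 0.91 (adjusted p = 0.153). The SE of each gene draws on the spread within all 5 groups, not within F21 and N2 alone. The HC125 libraries had 271, 157, 668 and 534 CPM at clec-209, and also spread widely at mct-2 (163, 204, 367 and 379 CPM) and C13B7.6 (103, 109, 244 and 269 CPM). mct-2, of the monocarboxylate transporter family, had 247 and 233 CPM in F21, against 19.97 and 41.5 CPM in N2 (2.86 ± 0.48, adjusted p = 0.0581). C13B7.6 had 212 and 206 CPM in F21, against 19.97 and 34.8 CPM in N2 (2.85, adjusted p = 0.136). At srd-73, another receptor gene, 83 and 7 reads were counted in F21 and none in N2, at least 9.47-fold more against a floor of 3 counts over the N2 group. Y19D10A.4 was the exception, with 153 and 171 CPM in F21, against 302 and 248 CPM in N2 (-0.77, adjusted p = 0.154). The segment was delimited after its values had been seen, so these counts describe it and are no test of it.

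**Figure D2:**
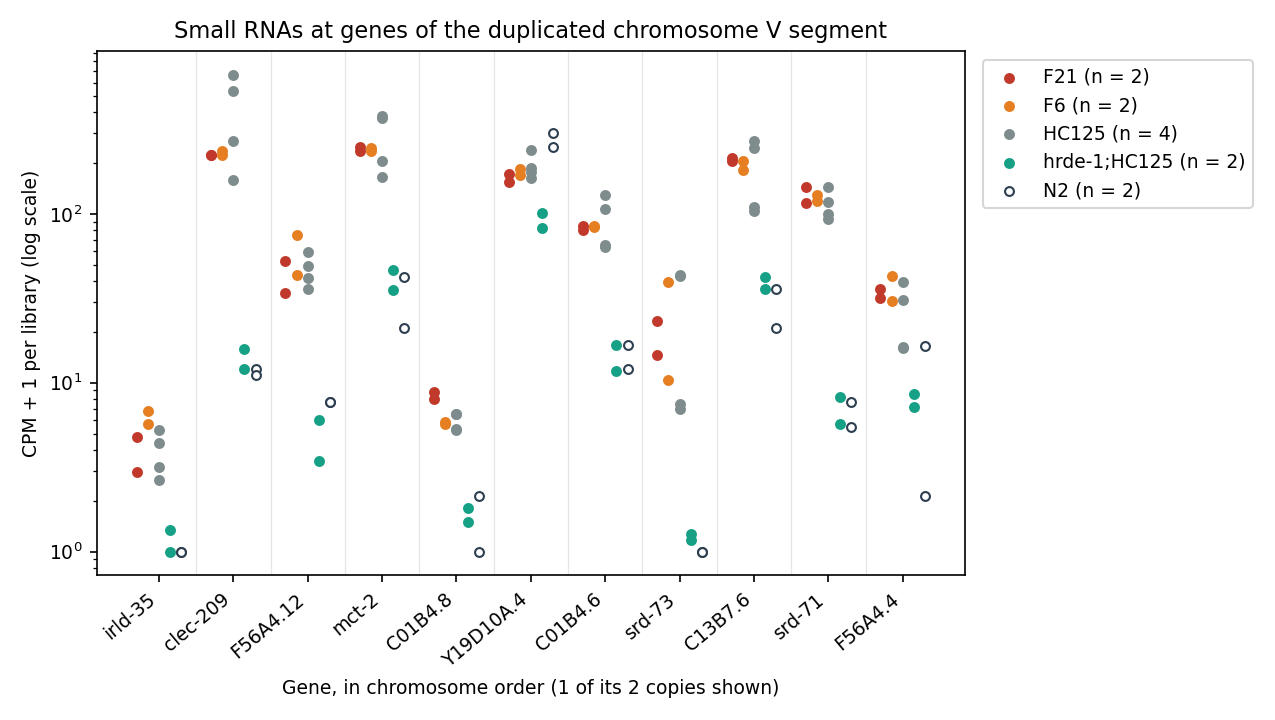
Small RNAs at the 11 tested genes of the duplicated segment that are paired by name, 1 copy each, in every library (CPM plus 1, log axis, genes in chromosome order). F21, F6 and HC125 libraries lie above the hrde-1;HC125 and N2 libraries at every gene drawn but Y19D10A.4, where N2 is highest, and F56A4.4, where 1 N2 library reaches the lowest HC125 libraries.

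Among the genes called lower, arl-13 (WBGene00021349, I:2065692-2069098, plus strand) changed most. It encodes a small GTPase of the ARL13 type, which acts in the cilia of sensory neurons. It had 14.5 and 33.1 CPM in F21, against 164 and 179 CPM in N2. The log2 difference was -3.20 ± 0.27 (adjusted p = 5e-06), or 9.18-fold lower in F21. Without F21 replicate 1 it was -2.38 (adjusted p = 0.00152). It overlaps the ribosomal protein gene rla-1 on the other strand, which had 39.3 and 42.8 CPM in F21, against 51.0 and 44.9 CPM in N2 (adjusted p = 0.840).

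ttn-1 (WBGene00006436, V:6120909-6202632, minus strand) encodes the titin-like giant protein of muscle. It had 29.97 and 33.1 CPM in F21, against 124 and 89.8 CPM in N2, a log2 difference of -1.76 ± 0.30 (adjusted p = 0.0175). pqn-52 (WBGene00019713, I:5566343-5570085), named for a glutamine- and asparagine-rich domain, had 29.7 and 31.1 CPM in F21, against 126 and 97.6 CPM in N2 (-1.87 ± 0.28, adjusted p = 0.00528). best-25 (WBGene00014102, I:14205717-14208726), of the bestrophin family of chloride channels, had 36.4 and 33.1 CPM in F21, against 88.7 and 85.3 CPM in N2 (-1.29 ± 0.23, adjusted p = 0.0237). For these 3 genes the libraries of the same group lay closer together than libraries of different groups. The N2 libraries still differed from each other at ttn-1 and pqn-52, and F21 replicate 2 had only 17, 16 and 17 reads at the 3 genes. All 3 lost their call without F21 replicate 1, at -1.67, -1.83 and -1.40 (adjusted p = 0.327, 0.178 and 0.229), where the one F21 library left was the shallow one. ttn-1 also lost it without F21 replicate 2 (adjusted p = 0.0517), and best-25 without F21 replicate 2 and without N2 replicate 2 (adjusted p = 0.102 and 0.209).

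Y73F8A.26 and ril-2 also fell. Y73F8A.26 (WBGene00013531, IV:15473660-15477512) had 499 and 620 CPM in F21, against 1358 and 1194 CPM in N2 (-1.20 ± 0.20, adjusted p = 0.0137). ril-2 (WBGene00007586, V:12596387-12599157), named from an RNAi screen for long life, had 368 and 307 CPM in F21, against 876 and 797 CPM in N2 (-1.30 ± 0.19, adjusted p = 0.00315). C06B8.7 (WBGene00007372) had 35.9 and 54.4 CPM in F21, against 146 and 90.9 CPM in N2 (-1.48 ± 0.28, adjusted p = 0.0332). The gene with the ID WBGene00019555, which is not in the annotation used, had 35.1 and 25.3 CPM in F21, against 158 and 137 CPM in N2 (-2.17 ± 0.28, adjusted p = 0.00145). Y73F8A.26 and WBGene00019555 lost their call without F21 replicate 1, at -1.05 and -2.54, and ril-2 without F21 replicate 2, at -1.16. The call of C06B8.7 ended without F21 replicate 1 (-1.09) and without N2 replicate 1 (-1.17), and with only F21 and N2 in the fit (-1.53, adjusted p = 0.0640).

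ND3 (WBGene00010966, MtDNA:11356-11691) was the one called gene of the mitochondrial genome. It encodes a subunit of complex I of the respiratory chain. It had 99.3 and 66.1 CPM in F21, against 206 and 220.0 CPM in N2, a log2 difference of -1.29 ± 0.24 (adjusted p = 0.0332). The call held when N2 replicate 1 was left out and ended without each of the other 3 libraries, at -1.70, -1.08 and -1.22.

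**Figure D3:**
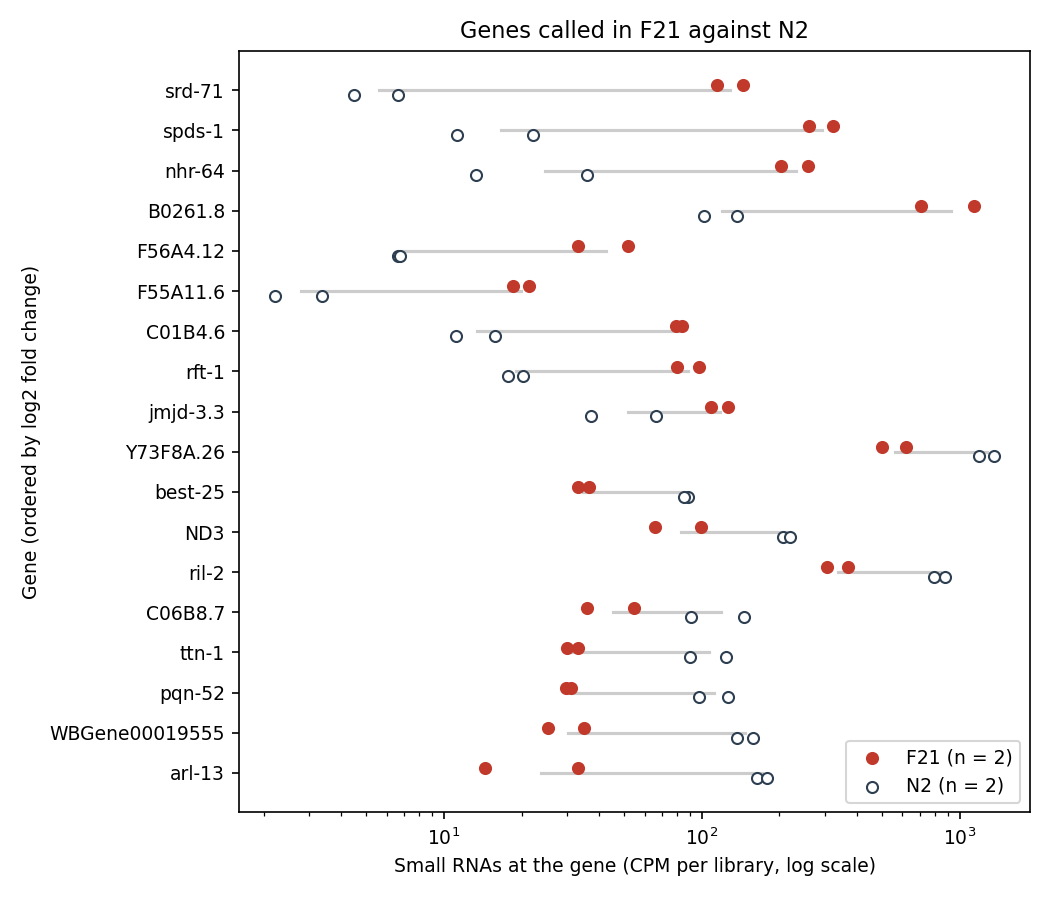
CPM of each library (log axis) at the 18 called loci, ordered by log2 fold change, with F21 in red and N2 as open circles. The grey line joins the group means, and at each locus the libraries of the 2 groups do not overlap.

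Of the 21 called genes, 6 at 5 loci kept their call in all 10 alternative settings, which include leaving out each F21 and N2 library in turn. These were srd-71, nhr-64, B0261.8, rft-1 and arl-13. Without F21 replicate 1, the deep library of the pair, 7 of the 21 calls were kept, 13 without F21 replicate 2, 15 without N2 replicate 1 and 12 without N2 replicate 2.

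The called genes were scattered otherwise. Chromosome V held 8 of those higher and 3 of those lower, chromosome I held 2 and 3, and II, IV, X and the mitochondrial genome held 1 each. Of the 21, 20 are protein-coding and 1 is not in the annotation. By edgeR no pseudogene was called among 241 tested (1 lower by DESeq2). At an unadjusted p under 0.05, 6 of them were higher and 35 lower, beside 653 and 836 of all tested genes. Among 32 tested genes that overlap or adjoin a called gene and are not called themselves, 8 had an unadjusted p under 0.05 (14.2% of all tested genes did) and 7 were called by DESeq2. Of both the 8 and the 7, 6 were genes of the duplicated segment, counted at both copies.

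Most of the called genes did not pass the test between F21 and the silenced generation F6. In F21 against F6, 15 of 10470 genes were called (0.143%), and 1 of the 21 was among them, ND3. B0261.8 had 1136 and 709.6 CPM in F21 and 1042 and 1031 CPM in F6. nhr-64 had 203 and 259 CPM in F21 and 248 and 234.6 CPM in F6, and spds-1 323 and 261 CPM in F21 and 221 and 236 CPM in F6. arl-13 had 14.5 and 33.1 CPM in F21 and 8.71 and 9.59 CPM in F6, a log2 difference of 1.02 that was not called (adjusted p = 0.603). ND3, with 99.3 and 66.1 CPM in F21 and 278 and 247 CPM in F6, was lower in F21 by -1.59 on the log2 scale (adjusted p = 0.00461).

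**Figure D4:**
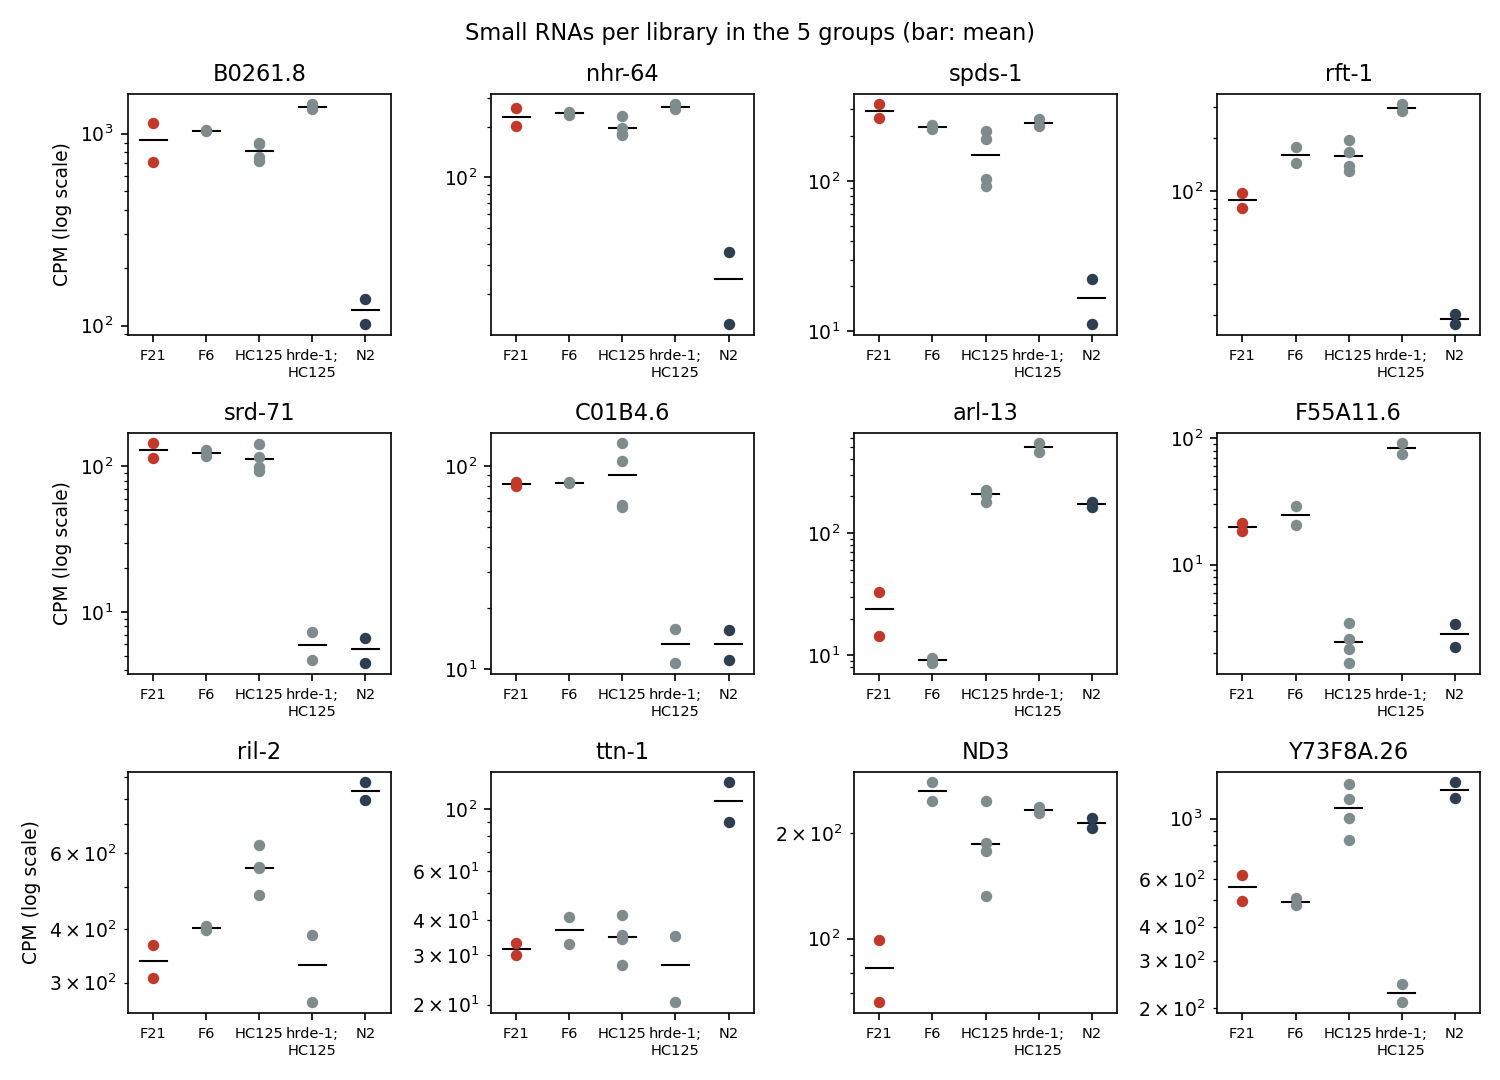
CPM per library (log axis, a separate scale for each gene) of 12 called genes in F21, F6, HC125, hrde-1;HC125 and N2, with the group mean as a bar. The F21 and N2 libraries are apart at each gene, and F6 lies near F21 at all of them but ND3, rft-1 and arl-13. The genes at which the HC125 mean lies nearer to N2 than to F21 include arl-13, F55A11.6 and ND3.

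In strain HC125, 26 genes were called in F21 against HC125 (0.248%), and 4 of the 21 were among them. arl-13 had 14.5 and 33.1 CPM in F21, against 180 to 224 CPM over the 4 HC125 libraries (log2 difference -3.46, adjusted p = 7.14e-07). F55A11.6 had 18.5 and 21.4 CPM in F21, against 1.67 to 3.42 CPM in HC125 (2.81, adjusted p = 0.000265). Y73F8A.26 had 499 and 620 CPM in F21, against 837 to 1335 CPM in HC125 (-0.98, adjusted p = 0.0234), and ND3 had 99.3 and 66.1 CPM in F21, against 132 to 247 CPM in HC125 (-1.07, adjusted p = 0.0468). For the remaining called genes the difference from HC125 did not pass the test. B0261.8 had 717 to 893 CPM, nhr-64 178 to 232 CPM, rft-1 130 to 196 CPM and srd-71 92.5 to 143 CPM in HC125.

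In F21 against hrde-1;HC125 many more genes differed, 1537 of those tested (14.7%), and 13 of the 21 were among them. The segment genes were high in F21 and low with hrde-1 mutated. srd-71 had 114 and 144 CPM in F21, against 4.69 and 7.28 CPM in hrde-1;HC125 (log2 difference 4.43, adjusted p = 1.21e-09), and C01B4.6 83.8 and 79.7 CPM in F21, against 15.8 and 10.8 CPM (2.6, adjusted p = 2.21e-05). rft-1 went the other way, with 80.01 and 97.2 CPM in F21, against 310 and 285 CPM in hrde-1;HC125 (-1.79, adjusted p = 5.10e-06). arl-13 had 14.5 and 33.1 CPM in F21, against 539 and 462 CPM in hrde-1;HC125 (-4.74, adjusted p = 6.97e-10). nhr-64, with 273 and 258 CPM in hrde-1;HC125, and spds-1, with 256 and 232 CPM, did not pass the test against F21. All these comparisons share the F21 libraries, so they are not independent of each other.

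The genes aex-5 and unc-54, which carried many small RNAs in HC125, had few in F21. aex-5, which encodes a prohormone convertase type protease, had 0.803 and 0 CPM in F21, from 3 and 0 reads, against 947 to 1187 CPM in HC125 and 0 and 2.25 CPM in N2. unc-54, which encodes a myosin heavy chain of body wall muscle, had 8.56 and 11.66 CPM in F21, against 843 to 1031 CPM in HC125 (log2 difference -6.69, adjusted p = 4.19e-05). In N2 it had 13.3 and 40.4 CPM, and F21 did not pass the test against N2 (-1.71, adjusted p = 0.284).

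No gene of the RNAi machinery was called between F21 and N2, which cannot be told apart from the called share of 0.201% over all genes. By edgeR and by DESeq2 0 genes were called among 5 tested systemic RNAi genes, 19 Argonaute genes, 29 genes of the RNA-dependent RNA polymerase, mutator and Dicer complexes, 18 germ granule genes and 20 chromatin genes of nuclear RNAi. The medians of the log2 difference were 0.14, 0.00, 0.08, 0.13 and 0.16. At an unadjusted p under 0.05 there were 0, 4, 2, 0 and 2 such genes, where the share over all tested genes was 14.2%. The F21 libraries lay above the N2 libraries at 1, 6, 6, 9 and 9 genes of these lists and below them at 0, 4, 1, 0 and 1. Over all tested genes, 22% lay above and 20.3% below. Some genes are in more than 1 of the lists, and nrde-3 is counted both among the Argonaute and among the chromatin genes. The largest values among the Argonautes were those of alg-3, which acts in sperm development, with 3.75 and 3.89 CPM in F21, against 13.3 and 31.4 CPM in N2 (-2.63, adjusted p = 0.160), and nrde-3, the somatic nuclear Argonaute, with 23.3 and 27.2 CPM in F21, against 4.44 and 11.2 CPM in N2 (1.49, adjusted p = 0.230). Both rest on few reads. alg-3 had 2 reads in F21 replicate 2, under the floor of 3 counts, and 6 and 28 reads in the N2 libraries. nrde-3 had 2 reads in N2 replicate 1, also under the floor. prg-1, the Piwi protein, had 1055 and 1060 CPM in F21, against 1020 and 1196 CPM in N2.

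Among loci known for dense siRNAs none was called either, beside the same 0.201%. Of 16 tested targets of the ERGO-1 class and 9 targets of nuclear RNAi and WAGO Argonautes, 0 were called by edgeR or DESeq2 and 0 had an unadjusted p under 0.05, with medians of -0.15 and -0.14. The F21 libraries lay below the N2 libraries at 8 of the 16 ERGO-1 targets and 2 of the 9 others, and above them at 0 of either, beside 20.3% and 22% of all tested genes. Of the ERGO-1 targets, K02E2.6 had 2574 and 2364 CPM in F21, against 2842 and 3103 CPM in N2. The 10 genes with the highest counts, not corrected for length, also had 0 called by either tool and 0 with an unadjusted p under 0.05. The first of them, the pseudogene Y52B11A.18 (WBGene00206497), had 14970 and 15570 CPM in F21, against 17450 and 11770 CPM in N2, so that the N2 libraries lay on both sides of F21.

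Genes of the mitochondrial genome leaned lower in F21, and 1 of them passed the test. Of 12 tested, 1 was called, ND3, 9 had an unadjusted p under 0.05, all lower, and 6 were called lower by DESeq2. Over all 10470 tested genes, 14.2% had an unadjusted p under 0.05 and DESeq2 called 94. For 11 of the 12 the F21 libraries lay below the N2 libraries, as did 20.3% of all tested genes, and the median log2 difference was -1.16. COX1, a subunit of cytochrome c oxidase, had 1425 and 861 CPM in F21, against 2380 and 2617 CPM in N2 (-1.12, adjusted p = 0.339). ND4, of complex I, had 478 and 292 CPM in F21, against 729.9 and 855 CPM in N2 (-1.02, adjusted p = 0.173). ND5, which overlaps ND3 in the annotation, was the exception, with 3168 and 1903 CPM in F21, against 2860 and 2670 CPM in N2. The mitochondrial genome took 0.869% and 0.527% of all counts in F21, against 1.14% and 1.34% in N2, and 0.738% to 1.71% over the HC125 libraries. In F6 it took 1.91% and 1.76%. The F21 replicates differed among themselves, and without F21 replicate 1 the median was -1.57. Reads of the mitochondrial sense strand cannot be told apart here, and their part in the result was not tested.

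The vitellogenin genes, which encode the yolk proteins made in the intestine of adults, leaned lower in F21 without passing the test. The small RNAs at the 6 genes summed to 1091 and 690.1 CPM in F21, against 1932 and 1758 CPM in N2. By edgeR 0 were called, 6 had an unadjusted p under 0.05 and lay lower in F21 with no overlap between the groups, and DESeq2 called 3 lower. Over all 10470 tested genes edgeR called 0.201% and DESeq2 called 66 lower. Of these genes, 14.2% had an unadjusted p under 0.05, and 20.3% lay lower with no overlap. The median log2 difference was -0.97, and -0.74 to -1.40 under the omission of 1 library. vit-1 had 90.7 and 75.8 CPM in F21, against 226 and 157 CPM in N2 (-1.14, adjusted p = 0.217), and vit-6 116 and 93.3 CPM in F21, against 197 and 204 CPM in N2 (-0.91, adjusted p = 0.333). vit-3, vit-4 and vit-5 are near-identical genes, and their shared reads make their separate values uncertain.

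Sperm genes differed mainly through a single N2 library. Of 31 tested major sperm protein genes, 0 were called by edgeR or DESeq2 and 17 had an unadjusted p under 0.05, all lower in F21, with a median of -1.52. Over all tested genes, edgeR called 0.201% and 14.2% had an unadjusted p under 0.05. The major sperm protein genes took 0.0402% and 0.0618% of the counts in F21, against 0.0574% and 0.19% in N2, so that N2 replicate 1 lay between the F21 libraries. Without N2 replicate 2 the median was -0.40, and without N2 replicate 1 it was -1.98. Over 18 tested spermatogenesis genes, 0 were called by edgeR or DESeq2, 6 had an unadjusted p under 0.05 and the median was -1.76, which became -0.08 without N2 replicate 2. Whether the share of sperm genes in this library bears on other differences was not tested.

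Of 43 tested germline and oocyte genes, 0 were called by edgeR or DESeq2 and 4 had an unadjusted p under 0.05, beside 14.2% of all tested genes. The F21 libraries lay above the N2 libraries for 24 genes and below for 0, beside 22% and 20.3% of all tested genes, and the median log2 difference was 0.26, or 0.15 to 0.37 under the omission of 1 library. pie-1, which represses transcription in germline blastomeres, had 90.7 and 97.2 CPM in F21, against 55.5 and 59.5 CPM in N2 (0.69, adjusted p = 0.293). mex-5, an RNA-binding protein of the oocyte and early embryo, had 103 and 105 CPM in F21, against 68.8 and 70.7 CPM in N2 (0.57, adjusted p = 0.277).

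Among genes of somatic tissues, 1 of 18 tested muscle genes was called lower by edgeR, ttn-1, and 2 by DESeq2. At an unadjusted p under 0.05, 7 were lower and 1 higher, and the median of -0.76 over the list became -0.37 without N2 replicate 2. The actin gene act-2 had 128 and 117 CPM in F21, against 173 and 217 CPM in N2 (-0.67, adjusted p = 0.178). Of 77 tested hypodermis and cuticle genes, 0 were called by edgeR, 21 had an unadjusted p under 0.05, 19 of them lower, and DESeq2 called 3 lower, with a median of -0.54. Of 71 histone genes, which occur in near-identical copies, 0 were called by edgeR, 15 were lower at an unadjusted p under 0.05 and DESeq2 called 5 lower, with a median of -0.19. Of 75 ribosomal protein genes, 0 were called by edgeR, 11 were lower at an unadjusted p under 0.05 and 1 by DESeq2, with a median of -0.30. Neuron genes (13 tested) and intestine genes other than vitellogenins (11 tested) had 0 called by edgeR or DESeq2, with 2 each at an unadjusted p under 0.05 and medians of 0.00 and -0.18. Over all 10470 tested genes, edgeR called 0.201%, and DESeq2 called 28 higher and 66 lower. At an unadjusted p under 0.05, 653 were higher and 836 lower, or 14.2% in either direction. The neuron and intestine counts in either direction were not far from that share. The ribosomal protein count was also near it, but its 11 genes were all lower and 0 were higher. For 28 of the 75 ribosomal protein genes the F21 libraries lay below the N2 libraries and for 4 above, beside 20.3% and 22% of all tested genes.

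Of the expanded gene families of the worm, 74 tested chemoreceptor genes had 2 called higher by edgeR, the srd-71 copies, and 4 by DESeq2. At an unadjusted p under 0.05, 11 were higher and 2 lower, and the 11 include both copies of srd-71 and of srd-73. The median of the list was 0.37, and it was 0.08 without N2 replicate 2 and -0.15 without F21 replicate 1. Of 76 nuclear hormone receptor genes, 1 was called by edgeR and by DESeq2, nhr-64 by edgeR, and 4 were higher and 1 lower at an unadjusted p under 0.05, with a median of 0.11. Of 217 F-box and MATH-BTB genes, 0 were called by edgeR or DESeq2 (24 at an unadjusted p under 0.05, median -0.02). Of 43 C-type lectin genes, 0 were called by edgeR, DESeq2 called 2 higher, and the median was -0.46. At an unadjusted p under 0.05, 8 were lower and 2 higher, and these 2 are the copies of clec-209 in the duplicated segment, which share their reads. Transgene marker genes had 0 of 7 called by edgeR, 1 at an unadjusted p under 0.05 and 1 by DESeq2, with a median of -0.52 that was 0.02 without N2 replicate 2.

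**Figure D5:**
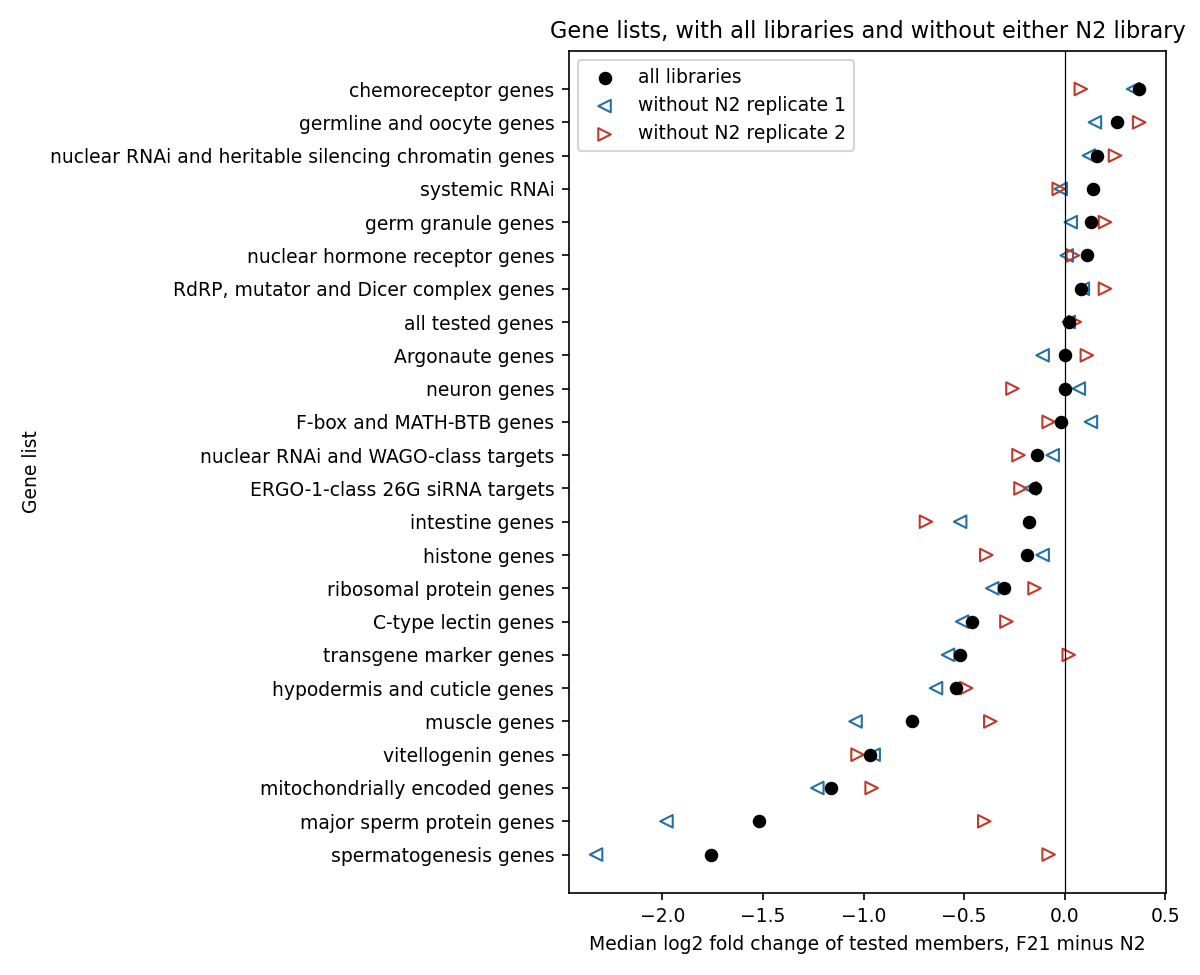
Median log2 fold change (F21 minus N2) of the tested members of each gene list, with all libraries (black) and without either N2 library (open triangles). The list of the duplicated chromosome V segment, with a median of 2.86, is not drawn. The sperm lists move from -1.52 and -1.76 to -0.40 and -0.08 without N2 replicate 2, while the vitellogenin and mitochondrial medians stay between -1.23 and -0.95.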

How the data were processed

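Raw read counts, whole numbers for each gene and library, are what the authors deposited, in a single table. Its name says that the reads had lengths of 21 to 26 nt. Bowtie2 and HTSeq are the tools listed in the submitters' processing notes, and the sources used here give no versions, genome build, annotation or strand. A total counts reads at genes, not sequencing depth, and totals ran from 451389 to 6379388. Positions, symbols and classes were looked up in Ensembl release 115 (WBcel235), where 20194 of 20541 IDs were found, and the authors may have used another build. Symbols of mitochondrial genes come from a RefSeq gene table.

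In R 4.3.3, edgeR 4.0.16 fitted the 12 libraries in 5 groups (7 residual degrees of freedom, 1 shared spread), with filterByExpr (minimum count 10, minimum total 15), TMM scaling and the two-sided robust quasi-likelihood test, and Benjamini-Hochberg adjustment over 10470 genes. CPM are counts per 1e+06 counts at tested genes, scaled by TMM. SEs were derived from the F statistic and intervals are at 95%. PCR reads carry no molecular identifiers, so floors cover counting error only. DESeq2 1.42.0 and the other alternatives are under the closing heading.

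Named genes were sid-1, hrde-1 and 3 neighbours of sid-1 on each side, up to 15 called genes each way with no overlap and a mean of at least 10 CPM, called members of the lists, and the 10 genes with the highest CPM. Further members of the lists and the segment, unc-54, aex-5 and neighbours of called genes were named after their values were seen. The comparisons with HC125 and hrde-1;HC125 were added after seeing values. The libraries, the 24 gene lists and the tests were chosen with earlier results of these data known, and the definitions of the segment and mitochondrial lists were altered after the counts were seen. No list has a test of its own.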

Additional observations from a re-analysis of the deposited data

Results flagged for a closer look

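In HC125 the gene WBGene00019555, called lower in F21, had 60.2, 107.8, 59.9 and 58.9 CPM. Replicate 2 lay apart from the others, with a gap of 0.974 of the group's range (above Dixon's limit for 4 libraries, which about 5% of groups pass by chance). Of the 22 genes examined this way, 1 passed.

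The differences of F21 and F6 from N2 were themselves different at 3 named genes, tested as F21 minus F6 in the same edgeR fit. At sid-1 that difference was -2.54 on the log2 scale (adjusted p = 1.57e-07), with 731 and 801 CPM in F21 and 4732 and 4159 CPM in F6. At C04F5.9 it was -3.25 (adjusted p = 4.37e-06), with 54.9 and 42.8 CPM in F21 and 420 and 552 CPM in F6. At ND3 it was -1.59 (adjusted p = 0.00461), with 99.3 and 66.1 CPM in F21 and 278 and 247 CPM in F6.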

How the results depend on the processing

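The number of genes called in F21 against N2, 21 (12 higher, 9 lower), depended on the fit. It was 662 (164 and 498) with no filter on low counts, 94 (28 and 66) by DESeq2, 37 (19 and 18) with only the 2 groups in the fit, and 143 (76 and 67) with N2 replicate 2 and 2 HC125 libraries (replicates 1 and 2) left out together, a choice made once the data had been seen. Leaving out 1 library gave 9 to 107 (6 to 53 higher, 3 to 54 lower), where a lone library is assumed to vary like the others. RLE factors gave 14 higher and 12 lower, library size alone 15 and 12. In F21 against F6 the 15 genes called became 140, 39 and 97 with no filter, by DESeq2 and with 2 groups, and 6 to 14 under omissions. The replicate block, the replicate number as a term, gave 172 genes (60 and 112) against N2 and 42 against F6, but F21 and N2 libraries of the same number did not deviate together (correlation 0.046), so they share only a number. The sid-1 difference stayed between -0.15 and -0.02. The causes were not tested.

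Signs turned only at genes that were not called. Leaving out 1 library gave ugt-63 -5.54 to 4.82, C04F5.8 -0.26 to 0.07, F14F9.4 -0.01 to 1.25, Y52B11A.18 -0.18 to 0.34, F37H8.2 -0.27 to 0.07, bath-45 -0.22 to 0.19, W09C5.12 -0.31 to 0.08, zip-2 -0.24 to 0.36, F15D4.5 -0.16 to 0.23 and B0250.8 -0.29 to 0.01. In the joint omission Y52B11A.18, zip-2 and F15D4.5 were -0.17, -0.22 and -0.15. bath-45 was 0.02 with no filter. zip-2 and F15D4.5 were both -0.02 with RLE factors, -0.02 by DESeq2 and -0.03 with 2 groups. A floor of 3 counts stood at 3.37 to 6.66 CPM in 3 of the 4 libraries, and a level below it could not be detected there.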
